A study of Parasteatoda tepidariorum with 2 samples.

Results

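A set of 328 nuclei of the stage-7 embryo of the spider *Parasteatoda tepidariorum* was examined for the genes it carried beside *Pt-otd*. They were chosen by the molecules counted for 6 genes, from a matrix of 6239 nuclei. A member held at least 3 molecules of *Pt-otd* (LOC107457189), at most 1 of *Pt-gsc* (LOC107439785), at most 2 of *Pt-six3-1* (LOC107450741), at most 1 of *Pt-pb-A* (LOC107455689), at most 1 of the mesoderm marker *Pt-twist* (LOC107440133) and at most 4 of the endoderm and extraembryonic marker At_eW_012_A08 (LOC107451427). The members made up 5.26% of the matrix (95% exact binomial interval 4.72 to 5.84) and are called *Pt-otd* nuclei here. They were compared with 3752 nuclei that met the last 2 limits and held no *Pt-otd* molecule.

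The nuclei were isolated from 20 whole wild-type embryos pooled into 1 library, in which exonic and intronic reads were both counted. A second library held 865 cells dissociated from 15 wild-type embryos of the same nominal stage. From stained siblings, the paper judged these embryos to be slightly younger than those that gave the nuclei. It describes the counting of intronic reads for the nuclei only. The library of cells is used only to look at the same genes in material the choice of nuclei did not use. Per the paper's methods each experiment drew its eggs from 1 egg sac, and the egg sacs of cells and nuclei differed. The parts of embryo age, of egg sac and of read counting in differences between the libraries were not tested. No embryo was treated or mutated. With 1 library of each kind, and with nuclei that are not replicates, no test across samples could be made, and every interval below covers counting error only.

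The stage-7 spider germ band is a sheet of cells in which head, thorax and opisthosoma are laid out in order and stripes of gene expression are splitting. *Orthodenticle* (*otd*) encodes a homeodomain transcription factor with a conserved role in head patterning in flies, beetles and spiders. In the spider head a stripe of *Pt-hedgehog* (*Pt-hh*), which encodes a secreted signal, moves and splits together with *Pt-otd*, and *Patched* is both the receptor of Hedgehog and a common target of its signal.

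The values that chose the nuclei are described first and support nothing else. *Pt-otd* counts ran from 3 to 27 molecules per member with a median of 5, and 60 members stood at the limit of 3 while 166 nuclei that met every other limit stood just outside with 2. No molecule of *Pt-gsc* was counted in 263 members and 1 molecule in the other 65 (19.8%), so the set is low in *Pt-gsc* rather than free of it. *Pt-six3-1* was at 0 in 296 members and *Pt-pb-A* at 0 in 292, and 206 members (62.8%) had no molecule of any of these 3 genes. The limits took away a good part of the nuclei with *Pt-otd*: of 694 nuclei with at least 3 molecules in the whole matrix, 266 were past the *Pt-gsc* limit, 48 past the *Pt-pb-A* limit and 29 past the *Pt-six3-1* limit.

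Depth per nucleus is given first. Members held 4799 to 19875 molecules with a median of 10430, the nuclei without *Pt-otd* a median of 9729 and all nuclei a median of 10452. At most 3000 genes were counted in 22.0% of members and 32.9% of nuclei without *Pt-otd*. The paper left out a stage-7 cluster of nuclei with few genes and molecules as a possible pseudocluster. Such nuclei were not removed here. The libraries shared 6 barcodes, none of them a member's.

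Regional markers were read as a difference from nuclei without *Pt-otd*, which does not by itself place a member in the head. Levels are given throughout as molecules of a gene per 10000 molecules of the group, and a ratio is the level in *Pt-otd* nuclei over the level in nuclei without *Pt-otd*. A gene is called higher at a ratio of 2 or more and lower at 0.5 or less, among 8579 genes with at least 300 molecules over both groups. Of these, 32 genes (0.373%) were higher and 142 (1.66%) lower, while the median ratio over all of them was 1.00.

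All 4 thorax markers and all 5 opisthosoma markers were lower, but they were not absent. *Pt-gas1* was found in 22.6% of members and 37.6% of the others, and *Pt-BarH1* in 12.2% and 16.3%. *Pt-scr-A*, a Hox gene of the anterior trunk, was at a level of 0.038 in *Pt-otd* nuclei and 0.49 in nuclei without *Pt-otd*. *Pt-AP2-A*, an AP-2 transcription factor, stood at 0.14 against 2.10, and the posterior Hox gene *Pt-AbdB-B* at 0.068 against 0.75. Among the markers of other tissues, *Pt-GATA1* had a level of 1.47 in *Pt-otd* nuclei and 3.71 in the others, and *Pt-tlx* 0.014 and 0.16. A *Pt-GATA1* molecule was found in 32.0% of members and 37.9% of the others. The other 2 endoderm and extraembryonic markers did not differ beyond counting error, LOC107439300 with a ratio of 0.76 (0.49 to 1.14) and LOC107436131 with 0.82 (0.48 to 1.30). The *Pt-twist* level was 0.057 in members and 0.12 in the others and that of At_eW_012_A08 0.51 and 0.55, both held down by the limits.

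*Pt-otd* was also counted in nuclei with mesoderm or endoderm markers. In the 506 nuclei past the *Pt-twist* limit *Pt-otd* stood at 0.33 molecules per 10000 and 19.6% of the nuclei held a molecule, and in the 446 nuclei past the At_eW_012_A08 limit it stood at 0.20 and 16.1% did. Their median depths were 12268 and 13602 molecules, and the highest counts were 15 and 20 *Pt-otd* molecules. Across both, 27 nuclei held at least 3. The parts of free RNA, of nuclei using the gene and of doublets were not tested. The level of *Pt-otd* in members was 6.05.

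**Figure D1:**
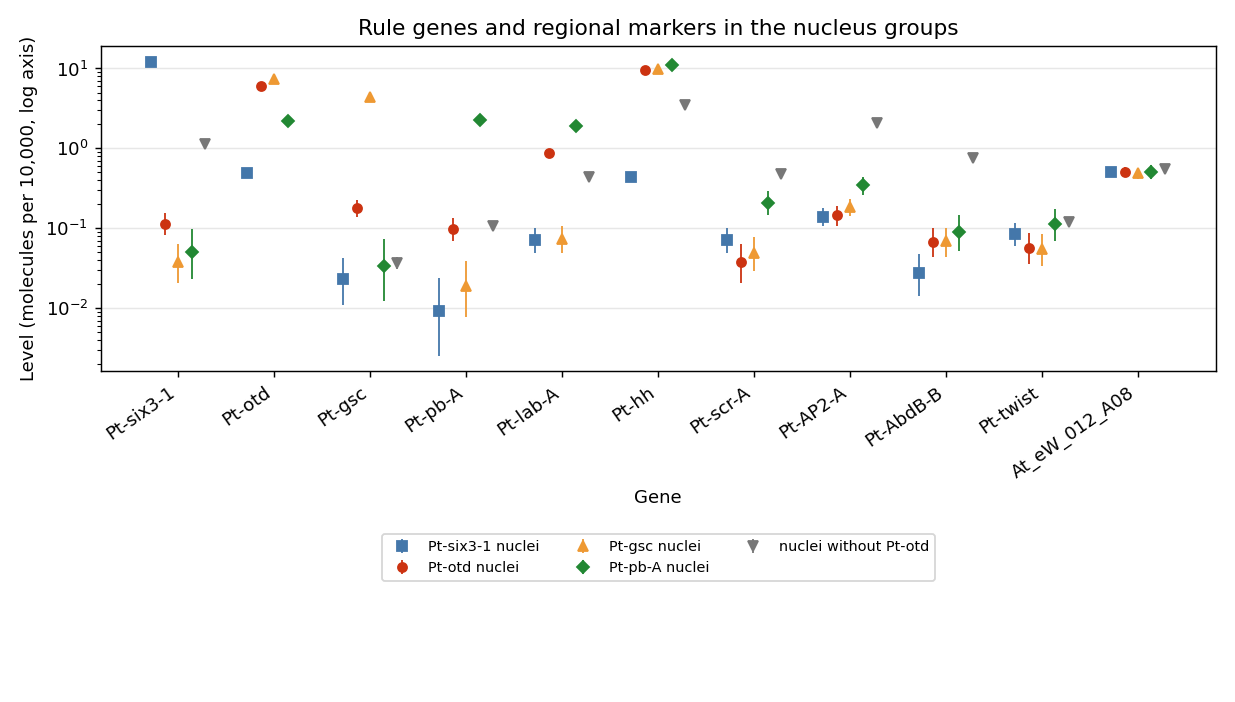
Levels (molecules per 10000, log axis) of the 6 genes that chose the nuclei and of 5 other regional genes in 5 groups of stage-7 nuclei, with 95% exact Poisson intervals. *Pt-otd* nuclei share *Pt-otd*, which chose them, with *Pt-gsc* nuclei, and *Pt-hh* with *Pt-gsc* and *Pt-pb-A* nuclei. They are low in *Pt-scr-A*, *Pt-AP2-A* and *Pt-AbdB-B*. Nuclei without *Pt-otd* have no *Pt-otd* point because their level is 0.

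Head transcription factors led the higher genes. Of the 24 head and neural transcription factors with enough molecules, 12 were higher, 5 lower and 7 in between, with a median ratio of 2.18, beside 0.373% higher and 1.66% lower among all genes. That list was chosen with earlier results of these data known, so its share beside all genes is a description only. The 25 genes named below are those of the 32 higher genes that were found in at least 20% of members. They fall into transcription factors, secreted signals with their receptors, and surface or extracellular proteins.

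The highest ratios belonged to a pair of EMX genes, whose fly relative *empty spiracles* is a head gap gene. EMX2 (LOC107448560) was counted at 0 to 13 molecules per member with a median of 0, and at 0 to 5 in nuclei without *Pt-otd*. A molecule was found in 32.6% of members and in 3.25% of the others. Its level was 0.96 (0.86 to 1.06) in *Pt-otd* nuclei and 0.039 (0.033 to 0.046) in the others, a ratio of 24.4 (20.1 to 29.7). EMX1 (LOC107448559), its direct neighbour in the RefSeq gene order, had a ratio of 19.4 (15.9 to 23.8) and was found in 32.0% of members. The 2 groups overlapped in range. At an equal depth of 4000 molecules a nucleus EMX2 was found in 22.3% of members, 1.63% of the nuclei without *Pt-otd*, 1.19% of nuclei past the *Pt-twist* limit and 0.90% of those past the At_eW_012_A08 limit.

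A second EMX pair, also direct neighbours, behaved alike at lower counts. EMX1 (LOC107437266) had a ratio of 6.67 (5.31 to 8.35) and was found in 18.9% of members. EMX2 (LOC107437265) was under the limit of 300 molecules and had a ratio of 12 (6.74 to 21.4). Reads may be shared between such related copies, so the division of molecules within each pair is uncertain. A molecule of any of the 4 EMX genes was counted in 157 of the 328 members (47.9%).

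Genes of the eye and brain programme in other animals were also higher. *Pax-6* (LOC107441893) stood at 0.41 in *Pt-otd* nuclei and 0.049 in the others, a ratio of 8.32 (6.67 to 10.3), and *Pt-pax6* (LOC107436595), 2 genes away from it, at 0.28 and 0.016 with 104 and 63 molecules. *Pt-otx2*, the second *otd*-type gene, had a ratio of 5.79 (4.74 to 7.05), with a level of 0.43 in members. Some of this may be reads shared with *Pt-otd*, which was not tested. *Pt-tll*, a nuclear receptor that patterns the head in *Drosophila*, had a ratio of 3.51 (2.98 to 4.11), and the LIM homeobox gene Lhx5 (LOC107449891), under the molecule limit, one of 9.26 (6.40 to 13.4).

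Of the SOX factors, 3 were among the named higher genes. *Pt-sox2-A*, a SoxB gene of the kind used in early neural ectoderm, was counted at 0 to 17 molecules per member with a median of 3, against a median of 0 and a highest value of 16 in the others. It was found in 88.4% of members and 49.8% of the others, at levels of 3.26 and 1.16, a ratio of 2.82 (2.64 to 3.0). Sox-13 (LOC107438641) had levels of 4.00 and 1.11 and a ratio of 3.59 (3.39 to 3.81), and SOX-4-like (LOC107454275) a ratio of 4.21 (3.53 to 5.00).

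The other transcription factors among the named genes were dve-1 (LOC107456902), a homeobox gene, with a ratio of 5.20, the forkhead gene *Pt-fd102C* with 3.52, the zinc finger genes EVI1-A-like (LOC122269602) and Noc (LOC107437937) with 2.42 and 2.38, and C-ets-1 (LOC107447162) with 2.05. *Pt-opa*, a Zic-type zinc finger factor needed for the splitting of the head stripe, reached 1.98 (1.90 to 2.07) and so lay just under the limit, with levels of 6.98 and 3.52. The 5 factors called lower were *Pt-sp6-9*, Pax-5 (LOC107444558), *Pt-runx-B*, *Pt-seven-up-A* and *Pt-mirr4*, at ratios from 0.16 to 0.47.

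Signalling genes were read by pathway. *Pt-hh* was counted at 0 to 81 molecules per member with a median of 2, and at 0 to 117 with a median of 0 in the other nuclei, so the ranges overlapped fully. It was found in 66.2% of members and 42.9% of the others, at levels of 9.53 (9.21 to 9.85) and 3.52 (3.46 to 3.58), a ratio of 2.71 (2.61 to 2.81). At 4000 molecules a nucleus the shares were 57.0% and 31.6%, and 12.6% of nuclei past the *Pt-twist* limit and 12.1% of those past the At_eW_012_A08 limit held it. Of the 5 Hedgehog pathway genes, 2 were higher, 1 lower and 2 in between. *Pt-ptc*, the receptor, had a ratio of 2.00 (1.88 to 2.13) and was found in 85.4% of members. The transcription factor of the pathway, *Pt-ci*, stood at 3.56 and 2.60, and *Pt-gas1*, a membrane protein that binds Hedgehog in vertebrates, at 0.29 and 0.90.

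Wnt genes divided. Of 11 Wnt pathway genes with enough molecules, 3 were higher, 5 lower and 3 in between. The ligand genes *Pt-wnt16*, *Pt-wnt5* and *Pt-wnt8* had ratios of 4.90 (4.15 to 5.76), 2.64 (2.45 to 2.84) and 2.02 (1.90 to 2.15). The ligand genes *Pt-wnt11_2*, Wnt-6 (LOC107438387) and *Pt_wnt7_1* had ratios of 0.11, 0.096 and 0.21, and the receptor *Pt-frizzled4* and the Wnt-inactivating enzyme *Pt-Notum* 0.37 and 0.34.

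In the EGF, Notch and BMP pathways 1 ligand each or none was higher. The EGF-type ligand gene pro-neuregulin-2 (LOC107438084) stood at 0.99 in *Pt-otd* nuclei and 0.20 in the others, a ratio of 5.08 (4.47 to 5.76), while *Pt-FGFRa*, an FGF receptor, had a ratio of 0.29. The Notch ligand gene jagged-1 (LOC107457180) had a ratio of 2.55 (2.39 to 2.72) and was found in 84.5% of members, *Pt-Delta* had 1.40 and *Pt-Notch* 0.49. All 4 BMP pathway genes lay in between, *Pt-sog*, a secreted BMP antagonist, with 1.23.

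The surface and extracellular genes differed less as a group. Of 18 surface and guidance genes tested, 1 was higher, 4 lower and 13 in between, with a median ratio of 0.84. The exception was teneurin-m (LOC107436783), a transmembrane adhesion protein, counted at 0 to 34 molecules per member with a median of 5 against a median of 1 and a highest value of 29. Its levels were 6.04 (5.79 to 6.30) and 1.65 (1.61 to 1.69), a ratio of 3.67 (3.50 to 3.85). *Pt-NDNF*, a secreted protein, had a ratio of 3.74 (3.49 to 4.01), MMP-21 (LOC107453701), a matrix metalloproteinase, one of 3.29 (2.76 to 3.91), and the channel aquaporin-9 (LOC107444570) one of 2.17 (1.85 to 2.53). The last of the 25, LOC122270466, has no described product and had a ratio of 4.56.

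**Figure D2:**
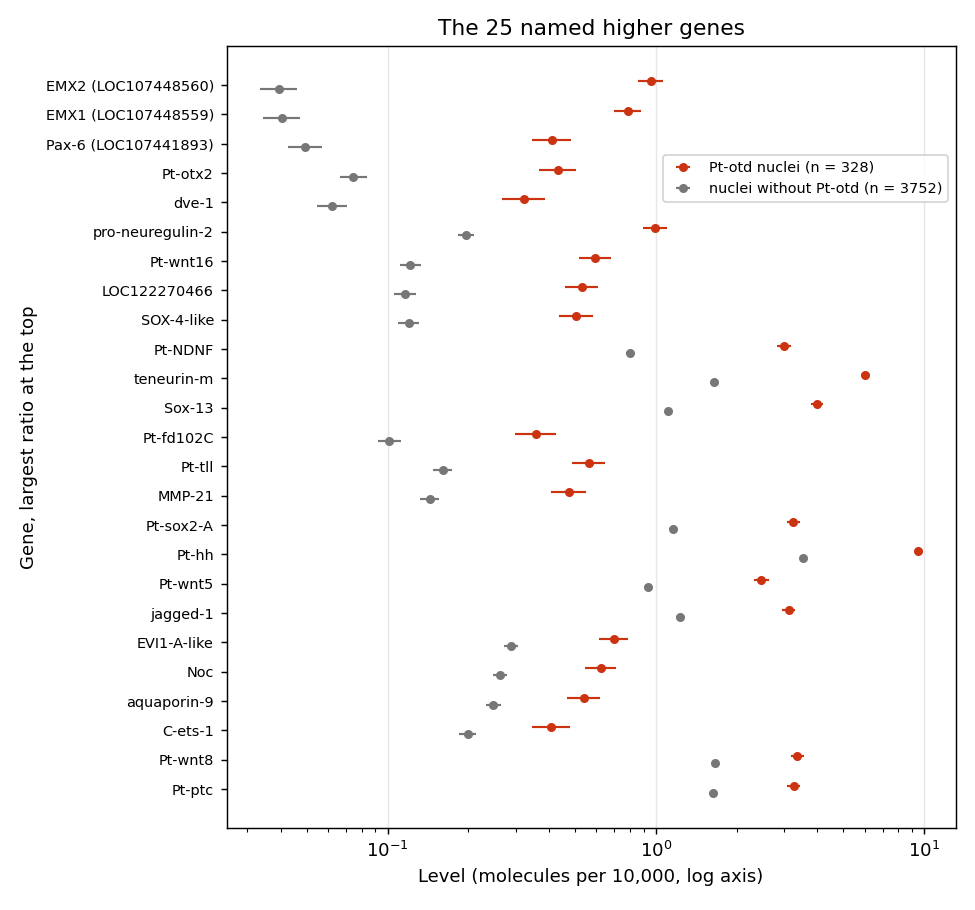
Levels (molecules per 10000, log axis) of the 25 named higher genes in 328 *Pt-otd* nuclei and 3752 nuclei without *Pt-otd*, ordered by ratio, with 95% exact Poisson intervals. The 2 groups are widest apart for the EMX pair and closest for *Pt-ptc*.

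The nuclei without *Pt-otd* included 261 *Pt-six3-1*, 65 *Pt-pb-A* and 21 *Pt-gsc* nuclei. With the limits on *Pt-gsc*, *Pt-six3-1* and *Pt-pb-A* set on the comparison nuclei too, an alternative chosen after seeing the data that left 3401 of them, the ratio was 9.75 for pro-neuregulin-2, 7.90 for MMP-21, 7.57 for *Pt-tll*, 6.94 for *Pt-fd102C* and 6.48 for EVI1-A-like. Genes near the limit of 2 passed under it in some alternatives, *Pt-ptc* with a lowest ratio of 1.69, C-ets-1 with 1.75, *Pt-wnt8* with 1.86 and aquaporin-9 with 1.91.

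Hox genes of the trunk were among the lower genes. Of 7 Hox genes tested, 5 were lower and 1 higher. *Pt-ftz* stood at 0.81 in *Pt-otd* nuclei and 5.44 in the others, a ratio of 0.15 (0.13 to 0.17), and was found in 36.3% and 71.0% of them. The ratios of *Pt-scr-A*, *Pt-AbdB-B*, *Pt-scr-B* and *Pt-antp-A* were 0.079, 0.091, 0.092 and 0.16. The *labial* genes, the most anterior Hox genes, went the other way, *Pt-lab-B* with a ratio of 2.14 (1.64 to 2.75) and *Pt-lab-A* with one that fell just short of 2, at levels of 0.88 and 0.44.

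Among the 15 named lower genes, LOC107447499 had the smallest ratio, 0.053 (0.032 to 0.082), and *Pt-AP2-A* the next, 0.069 (0.052 to 0.090). The pair-rule type genes *Pt-prd2* and *Pt-eve* had ratios of 0.10 and 0.20 and the posterior gene *Pt-caudal* 0.15. *Pt-bcl11*, a zinc finger factor, had 0.11, big brother (LOC107447242), a partner of Runx factors, 0.13, and *Pt-sp6-9*, an Sp factor of limb development, 0.16 (0.14 to 0.18), with levels of 0.76 and 4.76. The others were LOC107443634, LOC107450357, the homeobox gene Mix.2-like (LOC107440707) and kctd15-like (LOC107448951), with ratios from 0.15 to 0.24. Admitting nuclei with 2 *Pt-otd* molecules raised several of these ratios, that of *Pt-AP2-A* to 0.15, *Pt-scr-A* to 0.27, *Pt-ftz* to 0.32 and big brother to 0.32.

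Levels by *Pt-otd* count are a description as well, since that count chose the nuclei. Of the nuclei meeting the other 5 limits, 3401 had no *Pt-otd* molecule, 559 had 1 and 166 had 2, and the members were divided into 3, 4, 5 to 8 (121 nuclei) and 9 or more (85 nuclei). The EMX2 (LOC107448560) level was 0.037, 0.096 and 0.18 outside the set and 0.50, 0.58, 1.02 and 1.46 within it. *Pt-hh* stood at 3.71, 4.32 and 5.94 outside and at 7.67, 8.35, 9.30 and 12 within. No step of either gene went down.

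*Pt-AP2-A* ran the other way outside the set and was flat within it, at 2.32, 1.84 and 0.67 for 0, 1 and 2 *Pt-otd* molecules and 0.14, 0.20, 0.10 and 0.17 in members. *Pt-sp6-9* kept falling in members, from 1.51 at 3 molecules to 0.20 at 9 or more. Median depth was 10539, 10284 and 10632 molecules in members with 3 to 4, 5 to 8 and 9 or more.

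**Figure D3:**
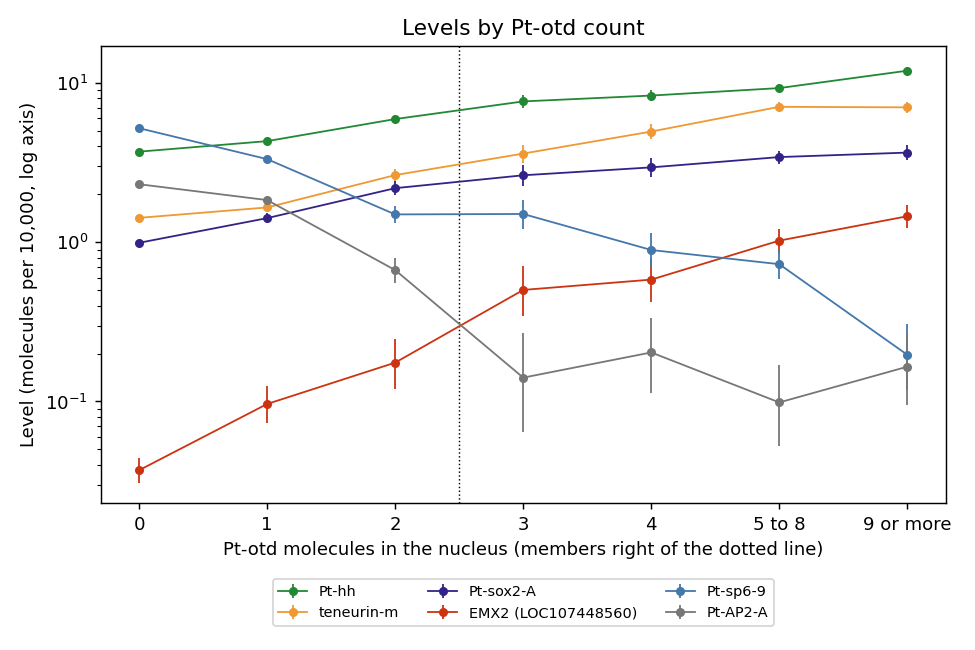
Levels (molecules per 10000, log axis) of 6 named genes by the number of *Pt-otd* molecules in the nucleus, members lying right of the dotted line, with 95% exact Poisson intervals. EMX2, *Pt-hh* and *Pt-sox2-A* are higher at each further count and *Pt-AP2-A* is at 0.67 or more left of the line and at 0.20 or less right of it.

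The *Pt-otd* nuclei were next placed beside nuclei that the limits left out. Where the nuclei of each group lay in the embryo was not measured, so the comparison need not be one within the head. These were 306 *Pt-gsc* nuclei with at least 2 *Pt-gsc* molecules, 365 *Pt-six3-1* nuclei with at least 3 *Pt-six3-1* molecules and 147 *Pt-pb-A* nuclei with at least 2 *Pt-pb-A* molecules, none in more than 1 group. At least 3 *Pt-otd* molecules were found in 85.6% of the *Pt-gsc* nuclei, 32.0% of the *Pt-pb-A* nuclei and 7.12% of the *Pt-six3-1* nuclei. Their median depths were 11592, 11569 and 11563 molecules, above the 10430 of members.

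*Pt-gsc* nuclei held the same genes, mostly at a higher level. They also held more *Pt-otd*, at 7.44 against 6.05 in members, a ratio of 0.81 (0.77 to 0.86). The part of *Pt-otd* level in the differences between these groups was not tested. Of the 25 named higher genes, 15 had their highest level in *Pt-gsc* nuclei, 4 each in *Pt-pb-A* and *Pt-six3-1* nuclei and 2, Noc and *Pt-wnt8*, in *Pt-otd* nuclei. The EMX2 (LOC107448560) level was 2.06 in *Pt-gsc* nuclei, so that members had 0.47 (0.41 to 0.53) times as much, and EMX1 (LOC107437266) was at 1.43 there and 0.35 in members. Teneurin-m stood at 9.58 in *Pt-gsc* nuclei and 6.04 in members, and *Pax-6* at 0.82 and 0.41. *Pt-hh* was alike within counting error, at 9.80 and 9.53 with a ratio of 0.97 (0.93 to 1.02), and so was *Pt-wnt8*, at 3.11 and 3.36 with 1.08 (1.00 to 1.17).

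Other genes stood lower in the *Pt-gsc* nuclei than in members, the *labial* genes most of all. *Pt-lab-A* was at 0.074 in *Pt-gsc* nuclei and 0.88 in members, a ratio of 11.9 (8.01 to 18.3), and *Pt-lab-B* had a ratio of 14.7 (6.04 to 46.7). A plexin-B gene (LOC107443647), which encodes a semaphorin receptor, stood at 1.79 and 6.37, and the Notch ligand *Pt-Delta* at 0.46 and 1.27. *Pt-fd102C* was at 0.16 in *Pt-gsc* nuclei and 0.36 in members.

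Against *Pt-six3-1* nuclei the members had more *Pt-hh*, *Pt-ptc* and EMX, while the other Hedgehog pathway genes stood lower in members. *Pt-hh* stood at 0.43 in *Pt-six3-1* nuclei, which made members 21.9 (18.9 to 25.5) times higher, and *Pt-ptc* at 0.96 against 3.27. *Pt-ci*, *Pt-gas1* and *Pr-shifted*, named for a fly Hedgehog-binding protein, gave ratios of 0.85 (0.79 to 0.91), 0.48 (0.38 to 0.60) and 0.23 (0.20 to 0.26). *Pt-NDNF* was at 0.17 there and 3.0 in members and EMX2 at 0.018 and 0.96. The *Pt-six3-1* nuclei held more EVI1-A-like, 2.33 against 0.70, more *Pt-tll*, 1.2 against 0.56, and more MMP-21, 1.06 against 0.47. *Pt-sox2-A* was alike, at 3.14 and 3.26.

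Against *Pt-pb-A* nuclei the members had more of several Wnt, anterior and surface genes. *Pt-pb-A* nuclei had a *Pt-wnt8* level of 0.19, so that members stood 17.9 (12.7 to 26.2) times higher, and levels of 0.045 for *Pt-wnt16* and 0.057 for *Pt-tll*. Members stood 11.7 (6.99 to 21.1) times higher in pro-neuregulin-2, 5.51 (4.38 to 7.03) in *Pt-wnt5* and 3.97 (3.50 to 4.52) in teneurin-m. *Pt-hh* was higher there, at 10.9 against 9.53 in members, as were Sox-13 and *Pt-NDNF*, at 6.18 and 4.1. *Pt-lab-A* stood at 1.91 and *Pt-ed*, an immunoglobulin-type adhesion gene, at 17.4 against 7.14 in members.

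Members themselves did not form one uniform set. Each nucleus was thinned to 4000 molecules and the 25 higher genes, *Pt-msx1* and *Pt-noto1* were correlated across the 328 members in 351 pairs. Most pairs showed next to nothing, with a median Pearson r of 0.019. The highest were *Pt-hh* with *Pt-NDNF* (0.53), *Pt-hh* with Sox-13 (0.42), Sox-13 with *Pt-NDNF* (0.42), *Pt-wnt8* with EVI1-A-like (0.40) and EMX1 with EMX2 (0.37).

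The lowest pair was *Pt-wnt8* with *Pt-hh*, at -0.49. In the thinned counts *Pt-hh* was found in 187 members, *Pt-wnt8* in 129 and both in 40. The next lowest were *Pt-wnt8* with *Pt-NDNF* (-0.41) and Sox-13 (-0.36) and *Pt-hh* with EVI1-A-like (-0.30) and pro-neuregulin-2 (-0.29). These points come from 1 library and a common depth, and the values are descriptions. In the neighbouring groups, which share no nucleus with the members, *Pt-wnt8* with *Pt-hh* gave -0.57 in *Pt-gsc* nuclei, -0.031 in *Pt-pb-A* nuclei, where 7 nuclei had *Pt-wnt8*, and 0.074 in *Pt-six3-1* nuclei, where 39 had *Pt-hh*. *Pt-hh* with *Pt-NDNF* gave 0.38, 0.50 and 0.14 in the same order.

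Members were therefore divided by whether a molecule of *Pt-hh* and of *Pt-wnt8* remained after thinning to 4000 molecules, a division made after these values were seen. Of the 328, 147 (44.8%) had *Pt-hh* only, 89 (27.1%) *Pt-wnt8* only, 40 (12.2%) both and 52 (15.9%) neither. Median depth was 9684 molecules with *Pt-hh* only, 10284 with *Pt-wnt8* only, 11937 with both and 11378 with neither. The levels of each kind are from all molecules, so a nucleus counted as *Pt-wnt8* only could still hold *Pt-hh*, and the 89 such nuclei held 26 molecules of it. *Pt-otd* did not differ beyond counting error between the first 2 kinds, with levels of 6.48 and 5.98.

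The *labial* genes and *Pt-ed* stood at higher levels in *Pt-hh*-only members than in *Pt-wnt8*-only members. Among members of every kind, 19.5% held a *Pt-lab-A* molecule and 12.8% a *Pt-lab-B* molecule. The *Pt-hh*-only kind made up 44.8% of members, so most of its nuclei had no *Pt-lab-A* counted, and most had no *Pt-lab-B*. The *labial* levels of this kind thus came from a minority of its nuclei for each gene. Shares within each kind were not computed. *Pt-lab-A* was counted 283 times in the 147 *Pt-hh*-only members and once in the 89 *Pt-wnt8*-only members, levels of 1.77 and 0.0100, and *Pt-lab-B* 57 times and 2 times. *Pt-ed* stood at 12.9 and 0.75, the Notch ligand *Pt-Delta* at 2.17 and 0.17, and the EGF-type gene pro-EGF (LOC107448055) at 3.22 and 0.11. Of the named genes, EMX2 was 11.4 (6.91 to 20.2) times higher in the *Pt-hh*-only members, *Pt-NDNF* 9.92 (7.51 to 13.4), Sox-13 6.62 (5.4 to 8.18) and SOX-4-like 5.88 (3.44 to 10.8) times. EMX1 (LOC107448559) was 3.04 (2.17 to 4.34) times higher. The named genes were part of the correlations that led to the division, so their ratios restate those correlations and support nothing further.

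*Pt-wnt8*-only members carried more *Pt-dll* and more of several other genes. Among the *Pt-otd*, *Pt-gsc*, *Pt-six3-1* and *Pt-pb-A* nuclei, EVI1-A-like, *Pt-fd102C* and *Pt-tll* had their highest level in *Pt-six3-1* nuclei. *Pt-wnt16*, pro-neuregulin-2 and *Pt-wnt5* had theirs in *Pt-gsc* nuclei. *Pt-dll*, a homeobox gene of limb and head development, stood at 2.60 in them and 0.14 in *Pt-hh*-only members. EVI1-A-like was counted 186 times and 2 times, *Pt-fd102C* 69 and 4 times and the guidance cue netrin-1 (LOC107450632) 117 and 10 times. *Pt-tll* stood at 1.28 and 0.16, *Pt-wnt16* at 1.27 and 0.19, pro-neuregulin-2 at 2.13 and 0.34 and *Pt-wnt5* at 3.69 and 1.63. Of these genes, all but *Pt-dll* and netrin-1 were part of the correlations that led to the division. *Pt-ci* was 5.24 and 2.61, whereas *Pt-ptc* was alike in both, at 3.36 and 3.26, with a ratio of 0.97 (0.84 to 1.11).

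*Pt-sox2-A* and *Pt-otx2* also did not differ beyond counting error between *Pt-hh*-only and *Pt-wnt8*-only members, with ratios of 1.09 (0.95 to 1.25) and 1.11 (0.74 to 1.68). Members with both or neither lay in between for *Pt-lab-A*, at 0.35 and 0.37, for *Pt-dll*, at 0.98 and 0.53, and for *Pt-ed*, at 3.12 and 5.45.

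**Figure D4:**
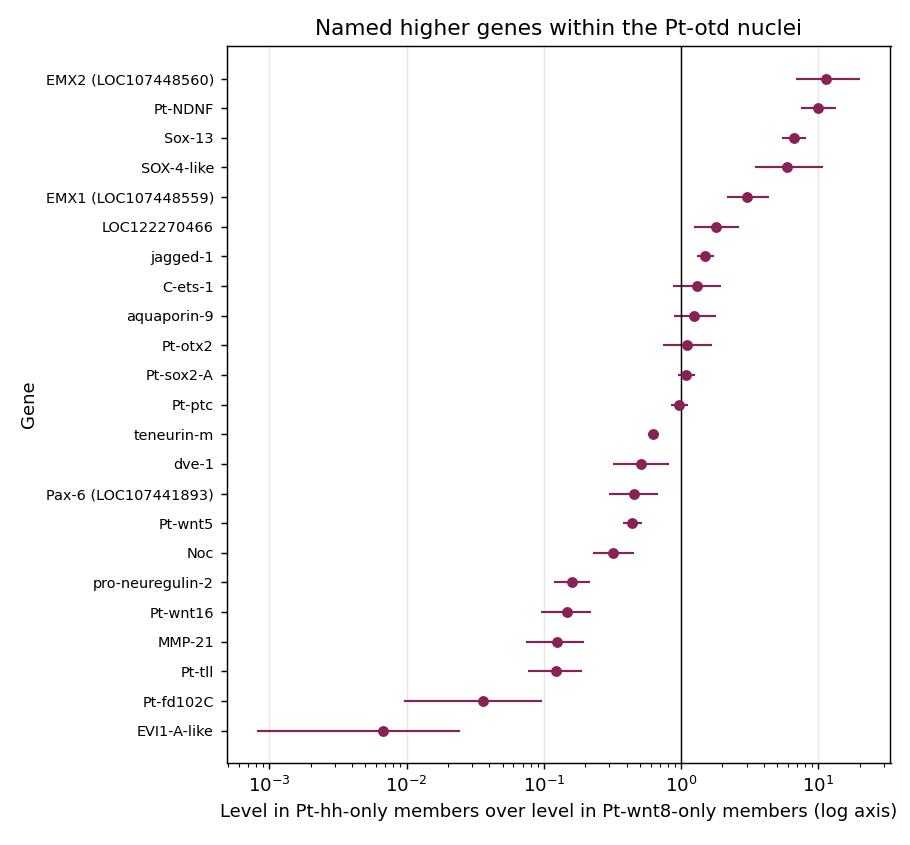
Ratio of the level in 147 *Pt-hh*-only members to that in 89 *Pt-wnt8*-only members (log axis) for the named higher genes other than *Pt-hh* and *Pt-wnt8*, with 95% exact intervals. EMX2 and *Pt-NDNF* lie at the *Pt-hh* end, EVI1-A-like and *Pt-fd102C* at the *Pt-wnt8* end, and *Pt-ptc*, *Pt-sox2-A* and *Pt-otx2* on the line at 1. These genes were part of the correlations that led to the division.

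Members with the few molecules of *Pt-gsc*, *Pt-six3-1* and *Pt-pb-A* that the limits allowed are given as a description, since those counts helped to choose the nuclei. The 32 members with 1 or 2 *Pt-six3-1* molecules and no *Pt-pb-A* had levels of 5.46 for *Pt-wnt8*, 2.62 for *Pt-hh*, 2.57 for *Pt-dll* and 1.57 for *Pt-ed*. The 36 members with 1 *Pt-pb-A* molecule and no *Pt-six3-1* had 1.46 for *Pt-wnt8*, 12.6 for *Pt-hh*, 0.51 for *Pt-dll* and 13.8 for *Pt-ed*. The 206 members with none of the 3 genes had 3.11, 10.2, 0.83 and 7.26, beside 3.36, 9.53, 0.98 and 7.14 in the whole set.

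The library of cells was read with a weaker limit because it held less *Pt-otd*. Cells with at least 1 *Pt-otd* molecule and the same upper limits numbered 127 of 865 (14.7%), and 613 cells had none. Their median depths were 10187 and 8345 molecules, and a group set by a single molecule moves with depth, whose part was not tested. Of 111 cells past the *Pt-twist* limit, with a median depth of 11572, 7 (6.31%, 2.57 to 12.6) held a *Pt-otd* molecule, as did 137 of 750 cells within both limits (18.3%, 15.6 to 21.2). At an equal depth of 3000 molecules the shares were 2.70% and 9.20%. Among 8076 of the same genes with at least 20 molecules over both groups of cells, 86 (1.06%) were higher in *Pt-otd* cells and 570 (7.06%) lower.

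Of the 25 named higher genes, 20 were at least 2-fold higher in *Pt-otd* cells, 24 had a ratio above 1 and 20 had an interval that left out 1. Their median ratio was 3.25, against 0.96 for all genes. Of the 24 that had at least 20 molecules over both groups of cells, the limit used for all genes, 19 were at least 2-fold higher. With at least 2 *Pt-otd* molecules asked of a cell, which left 57 cells, 21 of the 25 were at least 2-fold higher, and with cells thinned to 3000 molecules 22 were. EMX1 (LOC107448559) had a ratio of 30.5 (15.6 to 66.4), EMX2 (LOC107448560) 19.6 (8.46 to 52.7), *Pt-otx2* 10.3 (6.11 to 17.8) and *Pax-6* 8.62 (4.91 to 15.6). *Pt-hh* had 3.64 (2.97 to 4.45) and *Pt-ptc* 2.33 (1.97 to 2.76).

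The 5 that stayed under 2 were *Pt-wnt5* (1.92), EVI1-A-like (1.92), *Pt-wnt8* (1.89), Noc (1.57) and aquaporin-9. The last had a ratio of 0.67 (0.26 to 1.50) in cells from 7 and 46 molecules, so the cells hold too few of its molecules to give a direction. SOX-4-like rested on 8 molecules in the cells. All 15 named lower genes had a ratio of 0.5 or less in *Pt-otd* cells, 14 with an interval that left out 1, and *Pt-AbdB-B* was not counted in them at all.

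The same pairs were weaker in the *Pt-otd* cells. In counts thinned to 3000 molecules *Pt-hh* was found in 38 cells, *Pt-wnt8* in 18 and both in 1, with an r of -0.22 over 127 cells. *Pt-hh* with *Pt-NDNF* gave 0.24 and *Pt-hh* with Sox-13 0.064.

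**Figure D5:**
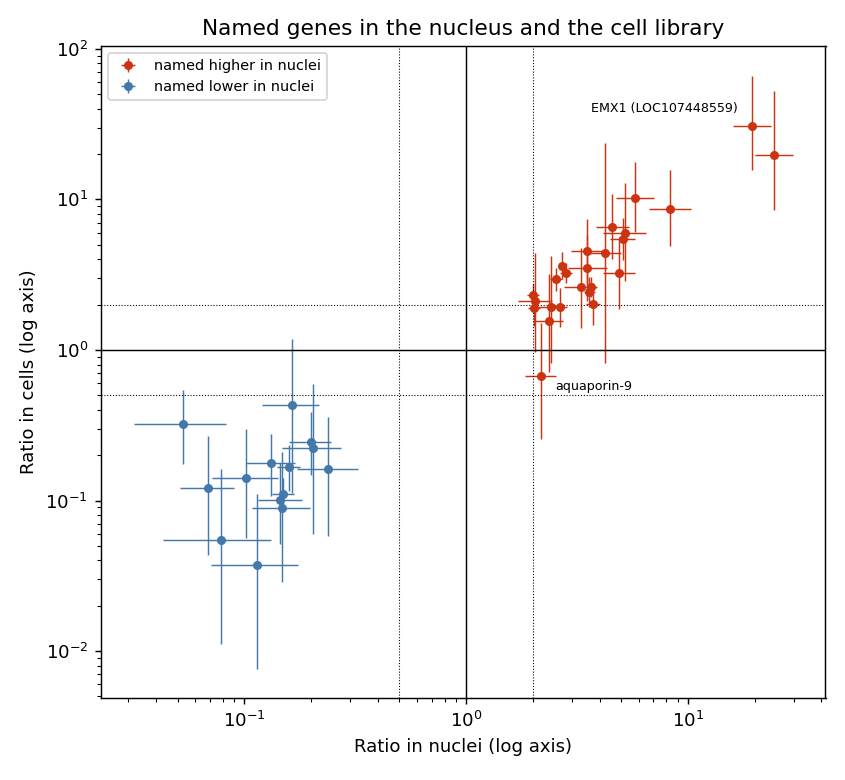
Ratio of levels with and without *Pt-otd* in the cell library (vertical, log axis) against that in the nucleus library (horizontal, log axis) for the named higher and lower genes, with 95% exact intervals and dotted lines at 2 and 0.5. All higher genes but aquaporin-9 lie above 1 in both libraries, and *Pt-AbdB-B*, with no molecule in *Pt-otd* cells, is not drawn.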

How the data were processed

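Per the labels and the study's methods, the authors made 1 BD Rhapsody library of nuclei and 1 of cells from stage-7 embryos, aligned reads with STAR 2.5.2b to Ptep_3.0 and deposited counts of molecules per gene and barcode. The filtered files held nuclei with at least 2000 genes and cells with at least 1500, each under 20000 molecules. The authors also deposited values normalized with Seurat 4.1.1, which were not used here, nor were the late stage-5 nuclei. No doublet caller was run here.

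Counts were summed per group with Python 3.11.15, numpy 2.4.6, scipy 1.17.1 and pandas 2.3.3. Levels have exact Poisson intervals, shares Clopper-Pearson intervals and ratios exact conditional binomial intervals at 95%, for counting error only. The code was tested on simulated data. Named genes are the 25 largest ratios found in at least 20% of members and the 15 smallest found in at least 20% of nuclei without *Pt-otd*, together with listed pathway genes. The members and lists were chosen with earlier results of these data known. The 20-molecule limit for cells and 2 alternatives were chosen after seeing the data. Gene names come from the study and from RefSeq (assembly CAS_Ptep_4.0), which held 16452 of 19692 genes. Levels of different genes were not compared, as length and annotation differ. Planned promoter motif counts were not made.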

Additional observations from a re-analysis of the deposited data

Results flagged for a closer look

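Aquaporin-9 (LOC107444570) stood apart because its ratio was above 1 in nuclei, at 2.17, and below 1 in cells, at 0.673. The interval in cells reached from 0.26 to 1.50, too wide to give a direction there, and the difference between the libraries was not tested.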

How the results depend on the processing

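Lowering the molecule limit for a gene to 100 gave 57 higher and 292 lower genes, and raising it to 1000 gave 13 and 70, as more or fewer genes could then be called. Admitting nuclei with 2 *Pt-otd* molecules gave 494 members, and allowing no molecule of *Pt-gsc*, *Pt-six3-1* and *Pt-pb-A* gave 206. The other alternatives were thinning, mean levels per nucleus, the *Pt-otd* limit, and the limits on *Pt-gsc*, *Pt-six3-1* and *Pt-pb-A*. They also included nuclei with more than 3000 genes, all barcodes and the alternatives added after seeing the data. Under all of these the higher genes numbered 26 to 46 and the lower genes 108 to 208. Of the 25 named higher genes, 19 to 22 were at least 2-fold higher in cells under the alternatives tried there. In 360 comparisons of a named gene's ratio, 271 stayed within its interval, 89 moved out of it and none changed direction. Of the 40 named genes, 29 moved out when nuclei with 2 *Pt-otd* molecules were admitted, and 17 with all barcodes. The genes were picked for extreme ratios in largely the same nuclei, so their unchanged direction is a description only. Among the barcodes removed by the authors' filter 91 met the limits on the 6 genes. No paired analysis was possible because each library is the only one of its kind. A gene in few members is limited by depth: a count of 0 in a nucleus does not show that the gene is off.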

Other observations

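Receptors and adhesion molecules made up the surface genes that were lower in *Pt-otd* nuclei. The ephrin receptor *Pt-eph* stood at 0.23 molecules per 10000 in *Pt-otd* nuclei and 0.93 in nuclei without *Pt-otd*, and was found in 18.9% and 44.7% of them. The adhesion gene neurotactin (LOC107441543) stood at 1.40 and 3.96, the netrin receptor UNC5C (LOC107445619) at 0.057 and 0.26 and the receptor gene toll (LOC107446715) at 0.036 and 0.25. Netrin-1 (LOC107450632), a ligand of UNC5C in vertebrates, stood at 0.42 and 0.25. The adhesion receptor *Pt-latrophilin-B* and ephrin-B2a (LOC107456521) were found in 96.6% and 97.9% of members, with ratios of 1.06 (1.03 to 1.10) and 1.09 (1.05 to 1.14).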
